A study of Daphnia magna with 40 samples.

Results

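Juvenile Daphnia magna exposed to fluvoxamine were set against juveniles exposed to nonylphenol at either of 2 doses, pooled. The members were picked out by their stage and treatment labels, for a comparison chosen with earlier results of these data known, and they were 12 of the 40 arrays of the series. The FV10 group held 4 arrays of juveniles kept in fluvoxamine at 10 µg/L (spelled fluovoxamine in the labels). The pooled nonylphenol group held 8 arrays, 4 of nonylphenol at 60 µg/L (NP60) and 4 of nonylphenol at 20 µg/L (NP20). No acetone array entered this comparison. Acetone at 0.1 ml/L carried both chemicals, so all 12 arrays had the carrier in common, and compound and dose cannot be told apart.

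Each juvenile sample was a pool of 20 whole animals, less than a day old at the start and kept for 3 days in a vessel of 0.5 L with algal food. The vessels were set up 4 times per treatment, so replicates were separate vessels. All animals belonged to clone F, a single parthenogenetic line, and genetic variation between lines was not sampled. For fluvoxamine the series' design text names 30 ppb where the sample labels name 10 µg/L, and which of the 2 was used is not settled here. The series also held juvenile arrays of fluoxetine at 40 µg/L (FX40) and of acetone alone, and the same 5 treatments in adults, which serve here only as context. For fluoxetine the 40 µg/L is the dose of the labels, while the design text names 80 ppb, and this is not settled either.

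Fluvoxamine is an antidepressant that blocks the serotonin transporter, the protein that takes serotonin back up into nerve cells. In crustaceans serotonin acts as a neurotransmitter and neurohormone and takes part in the control of hormone release, feeding and heart rate. Nonylphenol is an alkylphenol left by the breakdown of industrial surfactants, and in vertebrates it binds weakly to oestrogen receptors. Juvenile Daphnia moult repeatedly and grow fast in their first days. RNA of whole animals mixes all tissues, and in such an extract fewer cells of a type and less RNA per cell cannot be told apart.

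Each array carried 14338 probes of 1-colour Agilent design, identified by a number and not by a gene. None of the probe IDs matched the gene table of the species, so probes are named here by ID and no gene function is given. A value is the scaled log2 signal, which is log2 of the processed intensity less the log2 75th percentile of that array, so 0 marks a probe as bright as that percentile. The tests covered the 12626 probes that were detected well above background on 4 or more of the 12 arrays.

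The FV10 arrays were dimmer than the nonylphenol arrays. Their 75th percentile of processed signal averaged 8.07 ± 0.47 on the log2 scale (SD, n = 4), against 8.86 ± 0.35 on the nonylphenol arrays (SD, n = 8; two-sided exact permutation test, p = 0.0162, adjusted over 3 array measures 0.0242). Probes well above background made up 77.9% ± 2.1 on FV10 arrays, against 82.8% ± 3.5 on nonylphenol arrays (exact permutation p = 0.0404, adjusted 0.0404). Saturated probes made up 0.511% ± 0.036 on FV10 arrays and 0.795% ± 0.139 on nonylphenol arrays (exact permutation p = 0.00404, adjusted 0.0121), and that p is the smallest the design allows. Between 66 and 78 probes were saturated on an FV10 array, against 99 to 160 on a nonylphenol array, with no overlap. The difference in the 75th percentile missed an adjusted p of 0.05 when FV10 array A, B or D was left out (differences of -0.67, -0.66 and -0.86), and that in the percent well above background when one of these, NP20 A, C or D, or NP60 B or D was (-5.09 to -3.89 percentage points). For the probe results below, brightness was looked at only through a brightness term in the fit, whose counts stand beside them. Since brightness differed between the groups, that term cannot tell brightness and treatment apart.

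**Figure D1:**
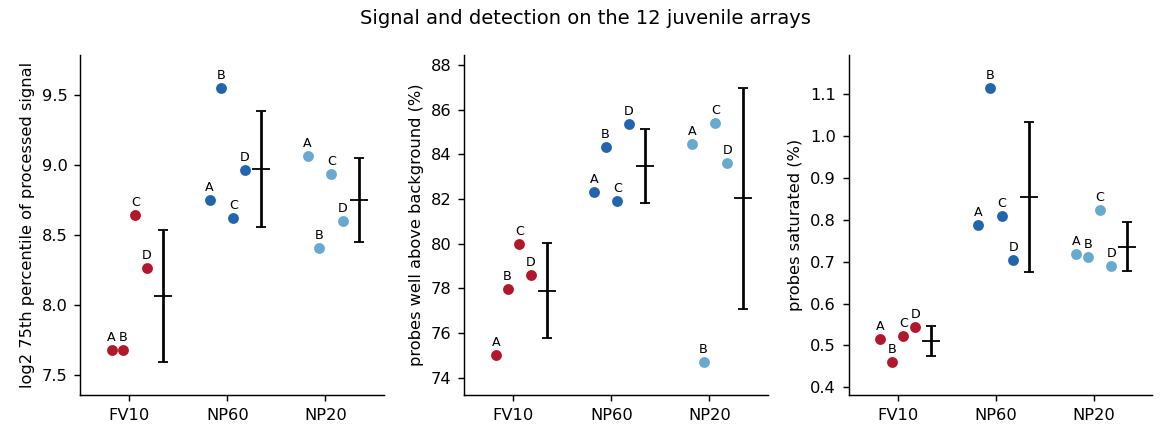
Log2 75th percentile of the processed signal, percent of probes well above background and percent of probes saturated on each of the 12 juvenile arrays, with letters for the replicates and bars for the mean and SD of each group. The axes do not start at 0. All 4 FV10 arrays lie below all 8 nonylphenol arrays in the percent saturated, and NP20 array B lies apart from its group in the percent well above background.

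The 4 FV10 arrays did not lie equally far from the nonylphenol arrays. FV10 array A lay outside the range of the 8 nonylphenol arrays for 59.0% of the probes measured on all 12 arrays, and FV10 array B for 49.7%. The share was 23.9% for FV10 array C and 26.5% for FV10 array D. A single nonylphenol array lay outside the range of the other 7 for 17.4% to 32.9% of probes, so arrays C and D fell among those values and arrays A and B above them. On the first principal component, which held 28.4% of the variance, FV10 A and B scored -119 and -79.9, while FV10 C and D scored 24.1 and -22.2 and the nonylphenol arrays between -9.48 and 65.8. FV10 A and B were also the dimmest of the 12, with log2 75th percentiles of 7.68 each, and they lay on different slides. The median SD of a probe was 0.67 on the log2 scale among FV10 arrays, against 0.50 among NP60 arrays and 0.45 among NP20 arrays. Over 12454 probes the 6 pairs of FV10 arrays correlated at 0.874 to 0.936, with A and B at 0.936 and C and D at 0.926. With the nonylphenol arrays, FV10 A, B, C and D correlated at medians of 0.866, 0.895, 0.924 and 0.944.

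Between FV10 juveniles and nonylphenol juveniles, 2 probes passed an adjusted p of 0.05, a share of 0.0158% of those tested (limma, Benjamini-Hochberg). The probe DM09934P1 was higher in FV10 juveniles and the probe DM06523P3 was lower, each 0.00792% of the probes tested. The next smallest adjusted p was 0.0522, and 1470 probes had an adjusted p under 0.1. At an unadjusted p under 0.05 there were 3190 probes, 25.3% of those tested, where 631.3 would be the 5% share. The median 95% interval of a probe's difference reached 0.81 to each side on the log2 scale.

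DM09934P1 had scaled log2 signals of 8.28, 7.94, 4.34 and 5.34 on FV10 arrays A to D. On NP60 arrays A to D it had -1.07, -1.26, 1.21 and 1.48. On NP20 arrays A to D it had -1.09, -1.21, -1.65 and -0.96. All 4 FV10 values lay above all 8 nonylphenol values, and FV10 A and B were the highest. The FV10 mean was 6.48 ± 1.94 (SD, n = 4), against -0.57 ± 1.20 on nonylphenol arrays (SD, n = 8), a log2 difference of 7.05 with an SE of 0.76, or 132-fold (limma, adjusted p = 0.00522). The probe was well above background and unsaturated on all 12 arrays. Juvenile FX40 arrays gave -0.23, -0.52, 1.27 and 1.56, and juvenile acetone arrays gave -2.08, -0.04, -0.58 and -0.67, so the FV10 values lay above all 16 other juvenile arrays. The adjusted p of DM09934P1 (limma) was 0.12 when slide entered the fit as a block and 0.174 when array brightness entered as a covariate. It was 0.18 with FV10 A and B both left out. In those 3 fits the log2 difference was 7.44, 5.01 and 5.41. With the replicate letter as a block the adjusted p was 0.0829, at a log2 difference of 7.05.

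DM06523P3 had scaled log2 signals of -3.76, -4.54, -3.75 and -4.70 on FV10 arrays A to D. On NP60 arrays A to D it had 0.00, -1.68, 0.24 and -0.21, and on NP20 arrays A to D it had 1.77, -0.27, 1.94 and 1.34. The groups did not overlap. The FV10 mean was -4.19 ± 0.50 (SD, n = 4), against 0.39 ± 1.22 (SD, n = 8) on nonylphenol arrays, so the probe fell by 4.58 on the log2 scale with an SE of 0.47 (limma, adjusted p = 0.00516). On FV10 array B the probe was not well above background, which left it outside the rule by which probes were named, and it was chosen for its call after its values were seen. Its difference was -2.23 on the log2 scale after normexp background correction, with an adjusted p of 0.321. The adjusted p was 0.12 with a slide block, 0.144 with a brightness term and 0.18 without FV10 A and B, while the log2 difference in those 3 fits was -4.27, -4.65 and -4.61. Juvenile acetone arrays gave 0.06, 1.30, 0.45 and -0.41. Juvenile FX40 arrays gave 0.29, 0.15, -3.81 and -0.52, of which only array C reached the FV10 level.

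The rule for naming probes also gave the 3 below, which were measured and unsaturated on all 12 arrays and did not pass the threshold, each with an adjusted p of 0.0522 (limma). DM08363P1 was a bright probe with FV10 values of 3.96, 4.07, 4.07 and 3.85, against 6.40, 6.07, 5.87 and 6.27 on NP60 arrays and 6.04, 6.07, 5.86 and 4.59 on NP20 arrays. Its FV10 values had an SD of 0.11, against 0.56 among the 8 nonylphenol values, and all lay below the lowest of these, NP20 D. The log2 difference of DM08363P1 was -1.91 with an SE of 0.29. DM08363P1 was at 5.84 to 6.68 on acetone and 5.76 to 6.40 on FX40 juvenile arrays, so the nonylphenol arrays other than NP20 D lay near those levels and the FV10 arrays below all of them.

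DM14219P1 had FV10 values of 1.09, 0.80, 0.91 and 1.31, against -0.23, -0.24, 0.46 and -0.58 on NP60 arrays and -0.60, -0.66, -0.63 and -1.11 on NP20 arrays. The groups did not overlap, and the log2 difference was 1.48 with an SE of 0.24. DM08811P1, a dimmer probe, had FV10 values of -3.49, -3.15, -2.91 and -2.92, against -1.44, -1.73, -1.76 and -1.43 on NP60 arrays and -2.09, -1.77, -1.58 and -2.28 on NP20 arrays. It too had no overlap, with a log2 difference of -1.36 and an SE of 0.22. After normexp background correction the difference of DM08811P1 was -0.61, with an adjusted p of 0.688 (limma). Acetone juveniles had DM08811P1 at -2.12 to -0.96, which overlaps the nonylphenol values and lies above the FV10 values, and DM14219P1 at -1.41 to 0.47, which lies below the FV10 values. Juvenile FX40 arrays A to D had DM14219P1 at -1.77, 0.61, 0.74 and 0.73. All lay below the FV10 values, but B, C and D came close to the lowest of these, 0.80. DM08811P1 was at -2.38 to -1.45 on juvenile FX40 arrays, above the FV10 values.

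**Figure D2:**
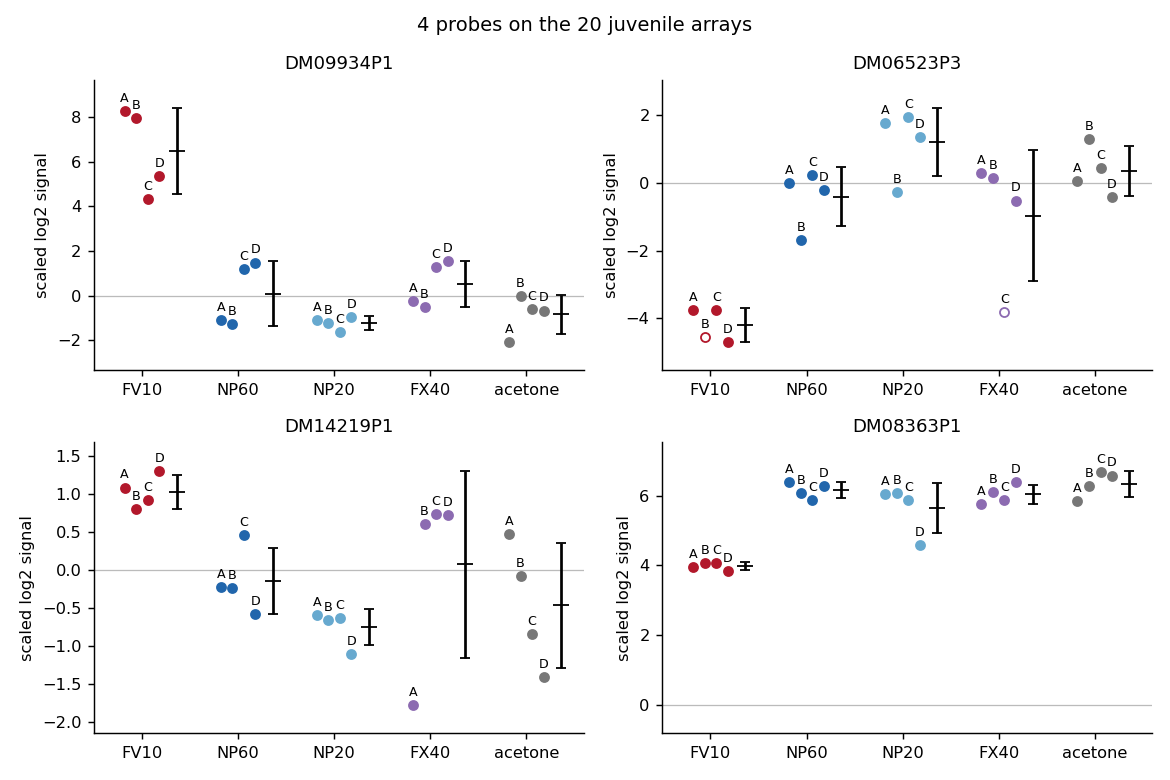
Scaled log2 signal of DM09934P1, DM06523P3, DM14219P1 and DM08363P1 on the 20 juvenile arrays, by treatment, with replicate letters and bars for the mean and SD. Open circles mark arrays where the probe was not well above background. In each panel the 4 FV10 values lie on 1 side of all 8 NP60 and NP20 values.

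Each FV10 array shared its slide with at least 1 nonylphenol array, so the differences could be read within slides. For DM09934P1 the FV10 array minus the nonylphenol arrays of its slide was 8.22 for A, 9.20 for B, 5.55 for C and 6.99 for D. For DM06523P3 it was -4.77, -2.87, -3.48 and -6.64. For DM08363P1 it was -2.00, -2.00, -2.00 and -2.02, the narrowest spread of the named probes. DM14219P1 differed by 1.16, 1.04, 1.58 and 1.94, and DM08811P1 by -1.57, -1.42, -1.14 and -1.34. Since the groups did not overlap at these 5 probes, the sign within a slide was fixed, and what the slides add is the size. Over all probes, 26.1% were at least 2-fold higher and 17.6% at least 2-fold lower on FV10 A than on the nonylphenol arrays of its slide, and 31.4% and 14.3% on FV10 B. The shares were 16.9% and 12.1% on FV10 C, and 8.26% and 8.78% on FV10 D.

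Between FV10 and nonylphenol means, 1581 probes were at least 2-fold higher, 12.5% of those tested, and 681 were at least 2-fold lower, 5.39%. The median difference of all probes was 0.13 on the log2 scale, so more probes lay above than below. This excess depended on the scaling. With quantile normalization the median was -0.04, with 1130 probes at least 2-fold higher and 1173 at least 2-fold lower. With normexp background correction it was 0.21, with 449 and 141. Of the probes at an unadjusted p under 0.05, 1970 were higher and 1220 lower as reported here, 1506 and 1782 with quantile normalization, 682 and 303 with normexp, and 238 and 573 with brightness as a covariate. With the probes cut by mean level into 3 equal parts, the brightest part had 264 at least 2-fold higher and 251 lower, while the dimmest had 668 and 178, and the median differences were -0.01 and 0.28.

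All 4 FV10 values lay above all 8 nonylphenol values for 334 probes, 2.68% of the 12454 measured on all 12 arrays, and below them for 221 probes, 1.77%, together 4.46%. With quantile normalization the counts were 270, or 2.17%, and 280, or 2.25%. Of the 334 probes, 226 were also above under quantile normalization, and of the 221, 195 were also below. The median log2 difference was 1.38 for the 334 probes and -0.97 for the 221, values which the rule of no overlap itself favours. DM09934P1 had the largest difference of the higher and DM06523P3 of the lower probes. Among the 334, 281 were well above background on all 12 arrays, as were 178 of the 221. Of the 334, 12 were saturated on all 12 arrays, where a true level is not measured. The 45 probes saturated throughout had a median difference of 0.78, close in size to the 0.795 by which the FV10 75th percentile lay below the nonylphenol one. The FV10 values also lay beyond the 4 FX40 and 4 acetone juvenile arrays for 72 of the 334 probes that were higher and for 101 of the 221 that were lower, which are 0.591% and 0.829% of probes measured on all 20 juvenile arrays and use the same 4 FV10 arrays.

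**Figure D3:**
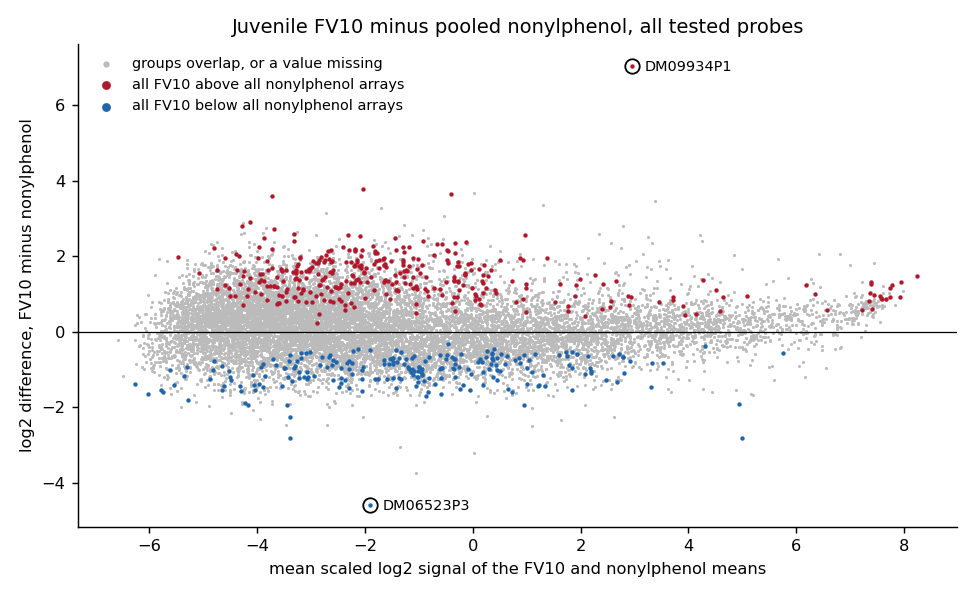
Log2 difference of each of the 12626 tested probes, FV10 minus pooled nonylphenol, against the mean of the 2 group means in scaled log2 signal. Red and blue points mark the 334 probes whose 4 FV10 values lay above and the 221 whose values lay below all 8 nonylphenol values, and circles mark the 2 probes past the threshold. Bright red points at the right edge include probes saturated on all 12 arrays.

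Loss of detection across a whole group was seen on FV10 arrays, where 14 probes were not well above background on any array but were on all 8 nonylphenol arrays. The reverse held for 0 probes. The largest bounds were at least 3.88-fold lower in FV10 juveniles for DM09560P2 and at least 3.32-fold lower for DM09955P4. They compare the nonylphenol mean with the higher, on each FV10 array, of the probe's own signal and the dimmest signal called well above background. None of the 14 passed the adjusted threshold (limma, adjusted p = 0.0637 and 0.0681 for those named), while 8 had an unadjusted p under 0.05, as did 25.3% of all probes tested. The 14 were picked by their lost detection in FV10, which itself favours a low p, so nothing is read from that count. Fewer probes were well above background on FV10 arrays as a whole, and the part of this in the 14 was not tested.

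The 2 nonylphenol doses were also taken one at a time. Against NP20, FV10 juveniles differed at 3 probes, 0.0238% of those tested, 1 higher (0.00792%) and 2 lower (0.0158%) in limma. These were DM09934P1, with a log2 difference of 7.70 and an adjusted p of 0.00932, DM06523P3, with -5.38 and 0.00424, and DM02924P1, with -3.62 and 0.0375. DM02924P1 falls outside the naming rule, and it was chosen after its values were seen. It had 3.99, 3.67, 3.27 and 3.44 on FV10 arrays and 7.07, 7.82, 7.40 and 6.55 on NP20 arrays, with NP20 A and C saturated, so the size of its difference is a lower bound. NP60 arrays had DM02924P1 at 7.20, 4.90, 5.43 and 4.75, with NP60 A saturated, so 3 of them lay between the FV10 and the NP20 values.

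Against NP60, no probe passed the threshold, 0% of those tested (limma, smallest adjusted p = 0.0854), and 2580 had an unadjusted p under 0.05, 20.4%. That smallest value belonged to DM09934P1, with a log2 difference of 6.39, and to DM06523P3, with -3.77. The corresponding count of unadjusted p under 0.05 was 2555 against NP20, 20.2%. Without FV10 array C, 1210 probes passed against NP20 and 1120 against NP60. Against NP20, the count was 1 without NP20 B or NP20 C and 5 without NP60 B. The 2 doses within the pooled group were also compared. NP60 minus NP20 gave 0 probes past the threshold (limma, smallest adjusted p = 0.91) and 311 at an unadjusted p under 0.05, 2.46% of those tested, fewer than the 631.3 of a 5% share. At least 2-fold differences numbered 239 higher, 1.89%, and 519 lower, 4.11%, in NP60. The NP60 arrays correlated with the NP20 arrays at 0.894 to 0.971 and FV10 arrays with nonylphenol arrays at 0.834 to 0.961.

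The count of 2 rested on which arrays and probes shared the fit. Leaving out FV10 array C gave 2081 probes past the threshold, 1440 higher and 641 lower, and leaving out NP20 array D gave 5. Leaving out any other array gave 2 or 3, and both DM09934P1 and DM06523P3 stayed past the threshold whichever single array was left out. On the 1440 higher probes, array C lay a median of 0.23 above the nonylphenol mean, against 1.92 for A, 1.79 for B and 0.84 for D. On the 641 lower probes, C lay at -0.28, against -1.93, -1.40 and -0.63 for A, B and D. The 1440 and 641 probes were picked by a fit that held A, B and D but not C. That itself favours larger values on A, B and D, so nothing about C is read from the gap. Without A and B together, 0 probes passed (limma, smallest adjusted p = 0.18) and 831 had an unadjusted p under 0.05. A slide block also gave 0 (smallest adjusted p = 0.12), with 3099 at an unadjusted p under 0.05, while slide as a random block gave 614. The slide block adds terms to the fit and leaves less from which to estimate the spread. With it DM09934P1 had a log2 difference of 7.44 with an SE of 0.78, against an SE of 0.76 as reported. The part of slide in the lost calls was not tested. Brightness as a covariate gave 0 (smallest adjusted p = 0.144), with 811 at an unadjusted p under 0.05.

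**Figure D4:**
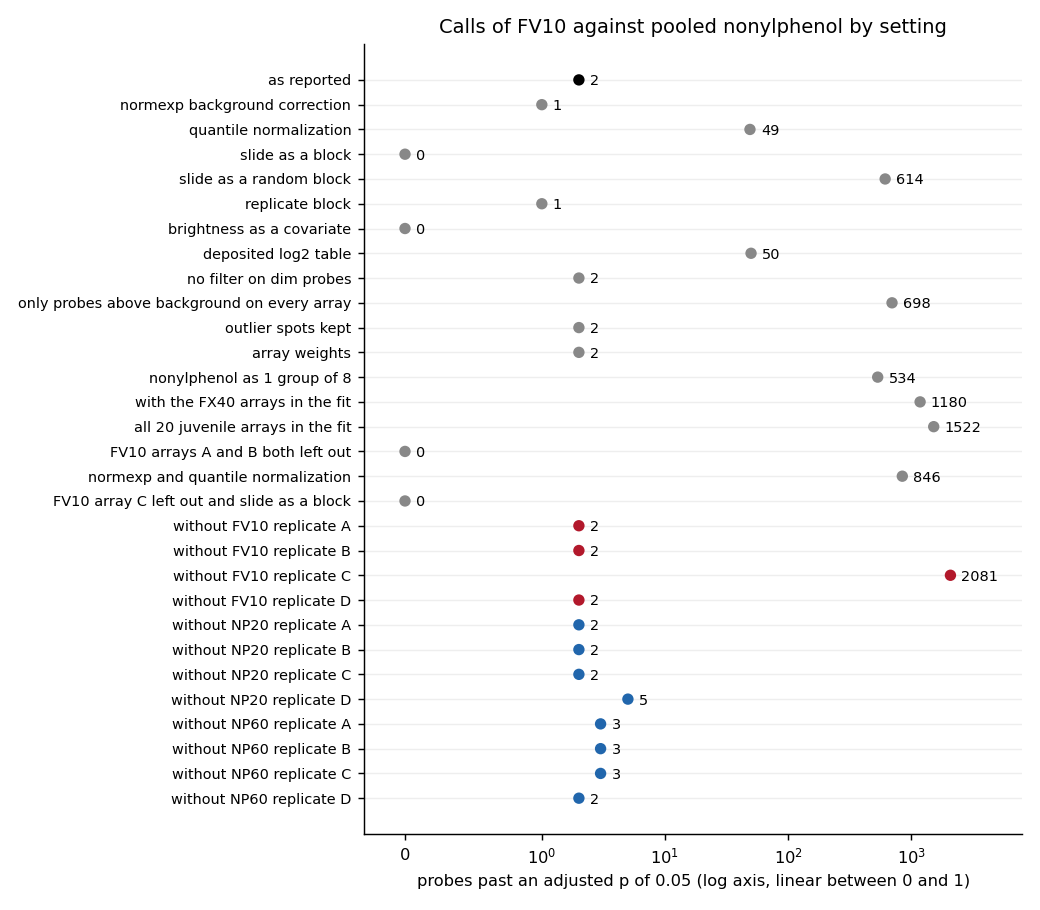
Number of probes past an adjusted p of 0.05 between FV10 and pooled nonylphenol juveniles under each setting, on a log axis that is linear between 0 and 1. The count was 2 as reported, 0 with a slide block, with a brightness term and without FV10 A and B, and 2081 without FV10 array C.

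The same contrast was read in adults, gravid females exposed from 8 to 9 days of age over 3 broods, on 12 arrays of other animals. The labels do not say whether adult replicates were separate animals or cultures, and adult p-values therefore rest on a spread between samples that may be technical. No probe passed the threshold, 0% of 12000 tested (limma, smallest adjusted p = 0.119), and 899 had an unadjusted p under 0.05, 7.49%. Of the 334 probes above all nonylphenol arrays in FV10 juveniles, 325 were tested in adults, and 284 of them, 87.4%, were higher in adult FV10 than in adult nonylphenol arrays, against 61.0% of all probes tested in both stages. The median adult difference was 0.37 for these probes and 0.11 for all. Of the 221 lower probes, 216 were tested, and 109, 50.5%, were lower in adult FV10 arrays, against 39.0% of all. With quantile normalization 83.1% of the 325 were higher and 55.1% of the 216 were lower, against 55.5% and 44.5% of all. Adult and juvenile arrays lay on the same slides, and the log2 75th percentile ran from 7.10 to 8.44 on adult FV10 arrays and from 7.35 to 8.89 on adult nonylphenol arrays.

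In adults the values of the 2 called probes overlapped between FV10 and nonylphenol arrays. DM09934P1 had 6.68, 0.55, 0.54 and 0.21 on adult FV10 arrays A, B, E and H, -0.22, -0.94, -0.92 and 2.14 on adult NP60 arrays, and 1.69, 5.73, 1.87 and -0.65 on adult NP20 arrays. DM06523P3 had -3.12, 2.16, 0.18 and 1.43 on the adult FV10 arrays, 0.95, 2.08, 2.58 and -1.53 on adult NP60 arrays, and -1.70, -3.92, 0.57 and 1.52 on adult NP20 arrays. The adult log2 differences were 0.91 with an SE of 1.37 and 0.10 with an SE of 1.21 (limma, adjusted p = 0.871 and 0.987), with intervals of -2.09 to 3.90 for DM09934P1 and -2.55 to 2.75 for DM06523P3. The stage difference itself was 6.14 for DM09934P1 and -4.68 for DM06523P3, with adjusted p of 0.171 and 0.207.

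The 5 adult arrays with DM09934P1 above 5 came from 4 treatments. They were FV10 A at 6.68, FX40 B at 6.35, NP20 C at 5.73 and acetone E and B at 5.68 and 5.07. On the same 5 arrays DM06523P3 was at -3.12, -4.01, -3.92, -4.93 and -2.78, the lowest adult values, and close to the levels in juvenile FV10 arrays. These arrays were picked out by their values, and no test is given for them.

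**Figure D5:**
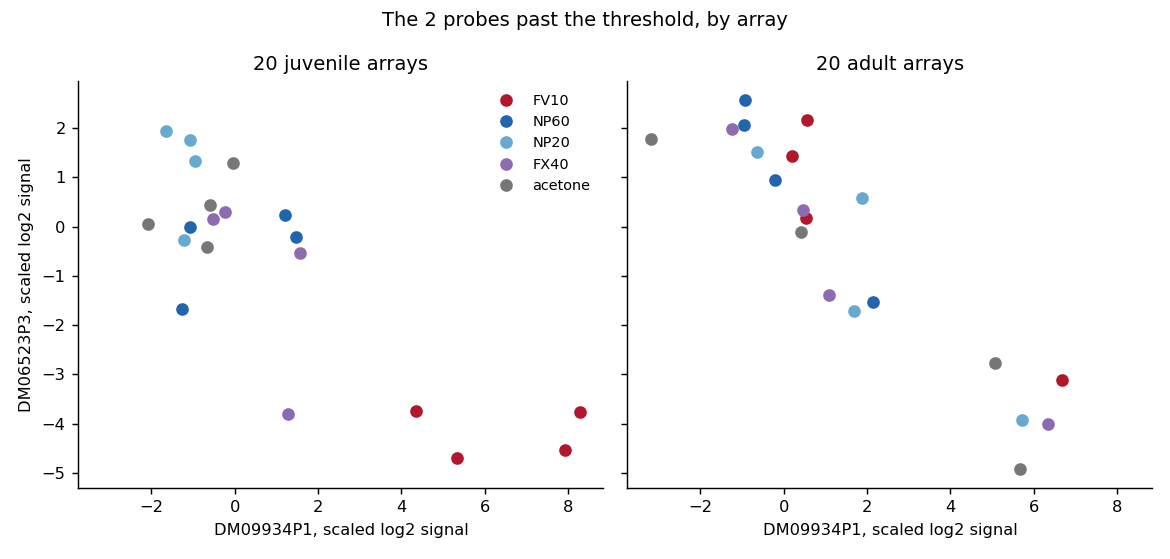
Scaled log2 signal of DM06523P3 against DM09934P1 on the 20 juvenile and the 20 adult arrays, coloured by treatment. High DM09934P1 with low DM06523P3 is seen on the 4 FV10 arrays among juveniles, and on 5 arrays of 4 treatments among adults.

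The contrast of FV10 with nonylphenol differed between juveniles and adults at 8 probes, 0.0678% of 11794 tested (limma with a stage term, juvenile minus adult difference). The juvenile difference was the higher at 6 probes, 0.0509%, and the lower at 2, 0.017%. At those 6 the adult log2 difference ran from -4.26 (DM09238P3) to -1.57 (DM03859P2). The juvenile one ran from 0.25 (DM09238P3) to 1.37 (DM03859P2), and none of the 6 passed the threshold in juveniles alone. DM01706P1 and DM12093P2, among the 6, were saturated on every juvenile array of the contrast, so their juvenile difference is not measured. Following the naming rule, DM05883P1 had a juvenile minus adult difference of 2.79 with an SE of 0.51 (adjusted p = 0.0318). Its juvenile values were 3.96 ± 0.50 in FV10 and 3.56 ± 0.36 in nonylphenol arrays, while in adults they were -2.68 ± 0.64 in FV10 and -0.30 ± 0.74 in nonylphenol arrays (SD, n = 4 and 8). The adult FV10 arrays, at -3.52 to -1.97, lay below all adult nonylphenol arrays, at -1.22 to 0.79. Adult acetone arrays had DM05883P1 at -3.23 to -1.45, which overlaps the adult FV10 values and lies below all adult nonylphenol values.

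At both lower probes the FV10 and nonylphenol arrays did not overlap in juveniles. DM08811P1 had a juvenile minus adult difference of -1.70 with an SE of 0.28 (limma, adjusted p = 0.0166). It averaged -3.12 ± 0.27 in juvenile FV10 and -1.76 ± 0.30 in juvenile nonylphenol arrays, and -1.69 ± 0.44 in adult FV10 and -2.04 ± 0.16 in adult nonylphenol arrays. DM11131P3 had a difference of -1.32 with an SE of 0.24 (limma, adjusted p = 0.0318), with juvenile FV10 values of -1.95, -1.60, -1.57 and -1.36 and juvenile nonylphenol values between -1.11 and -0.30. In adults DM11131P3 was at 1.17 to 1.43 in FV10 and 0.81 to 1.18 in nonylphenol arrays.

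The naming rule's second higher place was filled by DM08607P3, which did not pass, with a difference of 2.74 and an adjusted p of 0.0622. Its juvenile FV10 values were 7.08 to 7.74, against 5.38 to 7.42 in juvenile nonylphenol arrays, and its adult FV10 values were 1.27 to 2.68, against 2.44 to 5.38 in adult nonylphenol arrays. The count of 8 was 83 when juvenile FV10 array C was left out, 30 without adult FV10 A and 13 without adult NP20 B. It was 3 without juvenile FV10 A or adult FV10 E, and 4 or 5 without juvenile FV10 B, juvenile NP20 A or C, juvenile NP60 A, or adult NP60 A or F. After normexp background correction the differences of DM05883P1, DM08811P1 and DM11131P3 were 1.10, -0.73 and -1.11, and none passed the threshold.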

How the data were processed

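RNA of whole animals was measured on 1-colour Agilent arrays. Per the file headers, the scanner software was Agilent Feature Extraction 10.7.3.1, and the authors deposited its intensity values on a linear scale, with background already subtracted in the processed signal. A series-wide table of the authors holds log2 values, which followed quantile-normalized, probe-centred scanner values (correlation per array 0.9985 to 0.9995 over the 12 arrays, column medians -0.0713 to 0.0595). Further steps behind it are unknown here, and it served as an alternative.

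Of 15744 spots, 15208 were not controls. Scanner outlier spots were left out, saturated spots kept, and the 870 probes with repeated spots averaged. Signals were taken to log2 and the array's 75th percentile was subtracted. The 3 group means were fitted by lmFit and eBayes of limma 3.58.1 (R 4.3.3), and FV10 was set against the mean of the NP20 and NP60 means. P-values were adjusted over all probes of the fit by Benjamini-Hochberg, with 0.05 as the threshold. Array measures were compared with exact permutation tests in scipy 1.17.1. With 4 and 8 arrays, their number limits precision. In a check over all 40 arrays, the highest correlation between 2 arrays was 0.967. In the separate correlations of juvenile FV10 and nonylphenol arrays it was 0.971, between an NP20 and an NP60 array. By neither value was an array a copy of another.

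The arrays lay on 7 slides with 1 scan each. Alternatives were quantile normalization, normexp (offset 50), the authors' log2 table, other filters, slide, replicate letter and brightness in the fit, array weights, other samples in the fit and each array left out. Normexp followed by quantile normalization, and slide as a block without FV10 C, were chosen after seeing the data. Named probes were, per comparison, 2 higher and 2 lower among those past the threshold, without overlap, measured and unsaturated on every array, ranked by size, with places filled by the smallest unadjusted p. Of the 14338 probe IDs, 0 were found in the gene table of ASM2063170v1.1. The members, rule and probes were chosen with earlier results of these data known.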

Additional observations from a re-analysis of the deposited data

Results flagged for a closer look

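In 6 of 32 groups of values tested for an outlying array, 1 array stood apart, where chance marks about 1 in 20. The nonylphenol arrays were tested by dose and again pooled, so the groups share values. The values below of NP20 B and of DM08363P1 on NP20 D each count both among NP20 and among pooled arrays, so the 6 are not independent. NP20 array B had 74.7% of probes well above background, against 83.6% to 85.4% on the other NP20 arrays and 81.9% to 85.4% on the other 7 nonylphenol arrays; among the 4 NP20 arrays it lay just past the critical value. NP60 array B had 1.12% of probes saturated, against 0.690% to 0.823% on the other 7 nonylphenol arrays. NP20 array D had DM14219P1 at -1.11, against -0.66 to -0.60 on the other NP20 arrays. NP20 array D also had DM08363P1 at 4.59, against 5.86 to 6.07 on the other NP20 arrays and 5.86 to 6.40 on the other 7 nonylphenol arrays.

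At 8 probes the FV10 against nonylphenol difference differed between stages in the test of that difference. The juvenile minus adult differences were 3.73 for DM01706P1, 4.72 for DM02489P2, 4.41 for DM12093P2, 4.50 for DM09238P3, 2.79 for DM05883P1 and 2.93 for DM03859P2, and -1.70 for DM08811P1 and -1.32 for DM11131P3. At DM01706P1, adult FV10 arrays averaged 3.63 ± 0.97 and adult nonylphenol arrays 6.73 ± 0.58 (SD, n = 4 and 8), while all 12 juvenile arrays were saturated, which leaves the juvenile difference unmeasured there. DM12093P2 was also saturated on all 12 juvenile arrays, with adult means of 1.30 ± 0.82 in FV10 and 4.94 ± 1.10 in nonylphenol arrays. DM02489P2 had adult values of -0.69 to 1.34 in FV10, against 2.44 to 5.91 in nonylphenol arrays, and it was saturated on juvenile NP60 arrays A and B. DM09238P3 had adult values of -5.92 to -2.27 in FV10, 2 of them not well above background, against -1.13 to 1.29 in nonylphenol arrays. DM03859P2 was not well above background on any adult FV10 array.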

How the results depend on the processing

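The direction of all 5 named probes of the pooled comparison held in each of 26 alternatives, and that of the 9 probes of the stage difference in each of 30. DM09934P1 and DM06523P3 each stayed past the threshold in 22 of the 26. The 26 did not include the other probe filters, nor the fit without FV10 C and with slide as a block. In that last fit neither probe was called. The count of 2 probes was unstable: it was 1 with normexp, 49 with quantile normalization, 50 with the deposited table, 0 with slide as a block, 614 with slide as a random block, 0 with brightness as a covariate, 698 over only the 8571 probes above background on every array, 534 with nonylphenol as a group of 8, 1180 with FX40 arrays and 1522 with all 20 juvenile arrays in the fit, 0 without FV10 A and B, 846 with normexp and quantile normalization, 0 without FV10 C and with slide as a block, and 2 to 2081 with each array left out. The cause was not tested. DM09934P1 and DM06523P3 were both among the calls in each setting with 49 or more calls, except that DM06523P3 was not tested among the 698.

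Against NP20, the count of 3 was 1 with normexp, 8 with quantile normalization, 0 with slide as a block, 8 with slide as a random block, 0 with brightness as a covariate and 1 to 1210 with an array left out. Against NP60, the count of 0 was 1 with normexp, 2 with quantile normalization and 0 to 1120. NP60 against NP20 gave 0 to 1, the 1 without NP60 B. In adults normexp gave 4. The stage difference gave 3 with normexp, 5 with slide as a block, 15 with slide as a random block and 3 to 83.

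Replicate letters recur between groups without a label that pairs them. Of 12 same-letter pairs, 4 correlated above 0.1 in their deviations from the group means (range -0.34 to 0.37). Only 3 correlated best with their own letter. These values gave no clear sign that letters pair arrays, but with 4 arrays per group they cannot exclude it. With the replicate letter as a block the counts were 1 for the pooled comparison, 1 against NP20, 1 against NP60 and 3 for the stage difference. In the pooled comparison the call that this block lost was DM09934P1, whose log2 difference was again 7.05, with an SE of 0.86 and an adjusted p of 0.0829 (limma), and DM06523P3 stayed past the threshold.

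The array measures had differences of -0.68, -4.14 and -0.22 against NP20 alone, which missed the threshold, as did the -0.91 of the 75th percentile against NP60 alone. In the percent saturated, FV10 arrays reached at most 0.544% and NP20 arrays at least 0.690%. Without overlap, its unadjusted p was the smallest that 4 against 4 arrays allow. Its miss after adjustment therefore does not show that the difference was lost. With an array left out, the 3 differences from pooled nonylphenol ran from -0.99 to -0.66, -6.01 to -3.89 and -0.30 to -0.24. Fewer probes were well above background on FV10 arrays, and how far dim probes limited precision there was not tested.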
